A study of Rattus norvegicus with 12 samples.

Results

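The 9 genes described here encode the contractile and cytoskeletal proteins by which smooth muscle is usually recognised, together with the kinase that switches its contraction on: Acta2, Actg2, Myh11, Myl9, Mylk, Tagln, Cnn1, Smtn and Des. They were taken as every probe set whose platform annotation gives 1 gene name, that name being a member, with no measured value in the rule. This gave 12 probe sets of 9 genes, out of 14218 genes that the array names in this way. Of the 12, 10 probe sets were bright enough to be tested, at least 1 for each of the 9 genes, and the tested probe sets of all genes numbered 18626.

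The lungs came from Dahl salt-sensitive rats (SS), an inbred strain that becomes hypertensive on salt, and from Brown Norway rats (BN), an inbred strain often used as its normotensive partner. Each strain had animals under a ventilation the labels abbreviate as HTV, which they do not spell out, and control animals. The 4 groups were SS HTV, SS control, BN HTV and BN control, with 3 arrays each, 12 in all. All animals weighed 250 to 350 g. No transgene, deletion, drug, age or duration of ventilation is named. Room air is given for every sample, controls included. The whole right lung was profiled after its vessels had been flushed, so airway and vascular smooth muscle were measured together, and fewer muscle cells and less RNA per cell cannot be told apart. Each array carries its own animal number in the labels, and the p-values below rest on the spread among these 12 samples.

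Smooth muscle contracts when calcium and calmodulin activate myosin light chain kinase (Mylk), which phosphorylates the regulatory light chain (Myl9) and lets myosin (Myh11) pull on actin (Acta2, Actg2). Myosin phosphatase, held in check by the inhibitor Ppp1r14a, reverses this step. Most of these genes are switched on together by serum response factor (Srf) with its partner myocardin (Myocd), which act through CArG boxes in their regulatory DNA. Mylk is also made by other cells: a long form is abundant in endothelium, where it opens the gaps through which fluid leaves lung vessels, and the gene has been studied for that reason in ventilator injury.

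RefSeq promoter sequences on the rat assembly GRCr8, covering 250 bases before to 50 bases after a gene's start, were given for 6 of the 9 genes: Acta2, Actg2, Mylk, Cnn1, Smtn and Des. The promoters of Acta2 and Mylk are shown, the first because Acta2 had the largest upward HTV difference among the 10 tested probe sets in each strain and carries CArG-like sites, the second because Mylk is the kinase named above. Capitals mark CArG boxes with 1 substitution in the A/T core in Acta2 and an AP-1 site, TGANTCA, in Mylk. Acta2 lies on the minus strand at chr1:241172454-241172753 and Mylk on the minus strand at chr11:79498525-79498824.
Acta2: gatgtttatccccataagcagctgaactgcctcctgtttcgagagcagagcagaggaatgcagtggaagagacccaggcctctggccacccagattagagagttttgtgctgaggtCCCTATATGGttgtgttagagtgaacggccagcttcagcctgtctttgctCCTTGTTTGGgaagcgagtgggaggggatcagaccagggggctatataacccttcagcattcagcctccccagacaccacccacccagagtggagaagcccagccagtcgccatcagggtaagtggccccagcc
Mylk: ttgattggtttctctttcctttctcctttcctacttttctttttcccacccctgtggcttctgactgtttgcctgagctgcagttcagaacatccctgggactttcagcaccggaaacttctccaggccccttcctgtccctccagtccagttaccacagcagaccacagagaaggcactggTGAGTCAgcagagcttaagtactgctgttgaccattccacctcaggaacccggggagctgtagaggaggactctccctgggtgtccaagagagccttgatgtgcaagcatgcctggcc

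The Acta2 sites, CCCTATATGG and CCTTGTTTGG, lie at -134 to -125 and at -84 to -75 from the start, and no other of the 6 promoters held such a site. Both strands were searched, and the matches do not overlap. An exact CArG box was found in 0 of the 6 windows and in 1.64% of 33469 rat promoters of 300 bases. A box with 1 core substitution was found in 8.1%. The AP-1 site was found in 3 of the 6, Mylk (-68 to -62), Smtn (-70 to -64) and Actg2 (-222 to -216), against 7.33% of all promoters. A match describes letters in this window only. Mylk has more than 1 start, and which of its transcripts either Mylk probe set reads is not given in the sources used here.

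Median intensities of the 12 arrays lay between 58.6 and 68.1, and pairs of arrays had r = 0.882 to 0.980 on the log2(intensity + 16) scale used throughout. SS control 3 stood apart from its group, with a mean r of 0.949 to the other SS control arrays and an array weight of 0.286, where 1 is average. The log2 ratio of 5-prime to 3-prime signal of beta-actin, a sign of RNA integrity, averaged -0.70 ± 0.43 in SS arrays and -1.17 ± 0.23 in BN arrays (SD, n = 6 each), and was -1.40 in SS control 3. Of the airway markers, Scgb1a1, the secretory protein of club cells, had 3071 to 4680.6 intensity units, and Tppp3 had 1298.5 to 1662.3. Others varied more: Foxj1 had 115.1 to 376.7, Krt5 26.9 to 85.0, Muc5b 60.1 to 450.9 and Bpifa1 46.9 to 2436.8. Of 6 airway genes tested with limma, 0 were higher and 2 lower in SS than in BN control lungs. These were Krt5 and Muc5b (the latter kept in 13 of 24 alternatives), against 11% of all genes called. The part of airway tissue in the member values was not tested. Among further smooth muscle markers, Lmod1 had 51.0 to 84.5, Myocd 15.3 to 80.5 and Kcnmb1 16.4 to 29.4, so the last 2 were dim in whole lung.

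None of the contractile genes passed the test for HTV in either strain. In SS lungs limma called 0 of the 10 smooth muscle probe sets, where 8.06% of all tested probe sets were called (3.9% higher, 4.16% lower), and 1 of the 10, Acta2, had an unadjusted p below 0.05. In BN lungs it called 0 of 10 against 5.86% of all (3% higher, 2.86% lower), with 0 at an unadjusted p below 0.05. With the HTV effects of the strains averaged it again called 0 of 10, against 15.8% of all (7.09% higher, 8.74% lower), and again Acta2 alone was below an unadjusted 0.05. Differences above 0 were found for 8 of 10 probe sets in SS and 8 of 10 in BN lungs, against 49.3% and 44% of all, and the median member difference was 0.08 in SS and 0.22 in BN lungs, against -0.01 and -0.03 for all probe sets. HTV and control arrays did not overlap for 0 of the 10 in SS and 1 of the 10, Mylk, in BN lungs, against 29.8% and 26.6% of all probe sets.

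Acta2, the actin of vascular and airway smooth muscle and of myofibroblasts, had the largest upward HTV difference among the 10 tested probe sets in each strain. Its intensity was 613.5, 519.9 and 708.9 in SS HTV lungs, against 520.3, 466.4 and 303.4 in SS control lungs. In BN HTV lungs it was 647.8, 537.0 and 444.0, against 379.6, 380.2 and 537.8 in BN control lungs. SS HTV arrays 1 and 3 lay above all SS controls and SS HTV 2 just below the highest of them, while in BN lungs only HTV 1 lay above all controls, so the groups overlapped in both strains. The log2 difference was 0.52 ± 0.20 (SE) in SS lungs, a fold of 1.44 with a 95% interval of 1.06 to 1.945 (adjusted p = 0.130), and 0.32 ± 0.20 in BN lungs (adjusted p = 0.421). Averaged over strains it was 0.42 ± 0.14, a fold of 1.34 (interval 1.080 to 1.660; unadjusted p = 0.0115, adjusted p = 0.0644). This average passed the threshold without SS control 1 (adjusted p = 0.0373), without BN HTV 3 (0.0420), without BN control 3 (0.0394) and with the beta-actin ratio in the model (0.0157), and was 0.31 (adjusted p = 0.110) without SS control 3, the array with the lowest Acta2.

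Actg2, the actin typical of visceral smooth muscle, did not pass. It had 382.8, 273.3 and 321.9 in SS HTV lungs, against 356.6, 323.3 and 225.1 in SS control lungs, and 290.1, 286.9 and 153.5 in BN HTV lungs, against 219.2, 146.2 and 211.5 in BN control lungs. The differences were 0.12 ± 0.24 in SS (adjusted p = 0.783) and 0.29 ± 0.24 in BN lungs (0.565), with overlapping arrays in both.

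The myosin chains did not pass either. Myh11, the smooth muscle myosin heavy chain, had 671.4, 542.0 and 589.2 in SS HTV lungs, against 724.1, 455.9 and 371.9 in SS control lungs. In BN HTV lungs it had 516.2, 509.7 and 523.7, against 387.2, 439.3 and 610.6 in BN control lungs. The HTV arrays lay close together and the controls spread on both sides of them, which gave 0.26 ± 0.21 in SS (adjusted p = 0.455) and 0.13 ± 0.21 in BN lungs (0.789). A second Myh11 probe set was too dim to be tested, at 40.2, 16.8 and 33.5 in SS HTV lungs, against 53.4, 63.7 and 60.5 in SS control lungs. In a fit without the filter it ran the opposite way, -0.74 ± 0.28 in SS (adjusted p = 0.164) and -0.35 ± 0.28 in BN lungs (0.613). The mean of both probe sets therefore had a negative sign (-0.24 in SS, -0.11 in BN lungs), and neither direction of Myh11 was called.

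Myl9, the light chain that Mylk phosphorylates, had 468.8, 379.0 and 350.9 in SS HTV lungs, against 397.7, 377.7 and 316.5 in SS control lungs. In BN HTV lungs it had 305.0, 328.7 and 279.2, against 250.9, 227.2 and 286.3 in BN control lungs. HTV and control arrays overlapped in both strains, with SS HTV 1 and BN HTV 1 and 2 above all controls of their strain and the other HTV arrays inside the control range. The differences were 0.13 ± 0.13 in SS (adjusted p = 0.587) and 0.25 ± 0.13 in BN lungs (0.336), and 0.19 ± 0.09 averaged (0.205).

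Mylk did not pass in either strain. Its bright probe set, at the 99th percentile of all probe sets by mean intensity, had 2024.3, 1806.6 and 1576.3 in SS HTV lungs, against 1834.5, 1672.1 and 1702.0 in SS control lungs. In BN HTV lungs it had 1807.9, 1661.5 and 1744.1, against 1930.8, 1887.4 and 2020.1 in BN control lungs. SS arrays overlapped, while all 3 BN HTV arrays lay below all 3 BN control arrays. The differences were 0.05 ± 0.10 in SS lungs (adjusted p = 0.788) and -0.16 ± 0.10 in BN lungs (0.386). In folds, the 95% intervals ran from 0.894 to 1.194 in SS and from 0.773 to 1.033 in BN lungs. These are the narrowest intervals of the 10 probe sets. The dim Mylk probe set had 51.9 to 96.2 in HTV lungs of both strains, against 43.0 to 110.7 in control lungs, and differences of 0.02 ± 0.25 in SS (0.970) and -0.33 ± 0.25 in BN lungs (0.516). Ordered by mean, the bright probe set had 1946 in BN control, 1802 in SS HTV, 1738 in BN HTV and 1736 in SS control lungs, and none of the 4 tested differences between these groups passed.

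**Figure D1:**
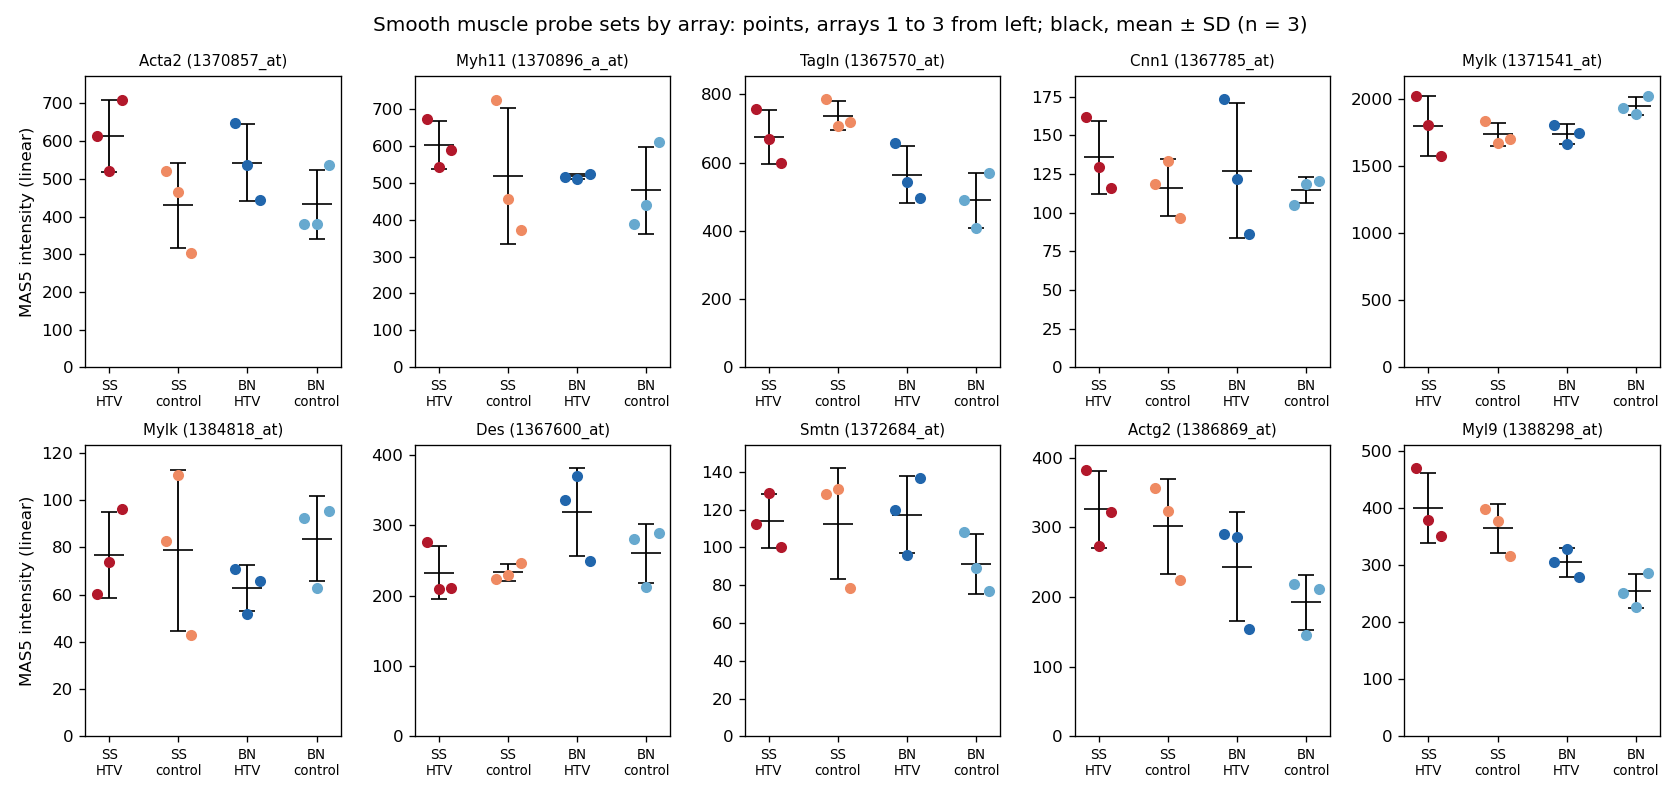
MAS5 intensity (linear, each axis from 0) of the 10 tested probe sets on the 12 arrays; colored points are arrays 1 to 3 of a group from left, and black lines are the group mean and SD (n = 3). The Acta2 arrays of HTV and control lungs overlap in both strains and no HTV difference passed, the bright Mylk probe set lay between 1576.3 and 2024.3 on all arrays, and Tagln and Myl9 were higher in SS than in BN control lungs.

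Nor did the proteins that bind the actin filament or form the cytoskeleton pass. Tagln (transgelin), an actin-bundling protein, had 756.1, 670.0 and 599.9 in SS HTV lungs, against 786.6, 706.7 and 719.8 in SS control lungs. In BN HTV lungs it had 656.2, 542.3 and 495.6, against 490.8, 408.5 and 568.3 in BN control lungs. SS HTV arrays tended to be below and BN HTV arrays above their controls, both with overlap, and the differences were -0.13 ± 0.14 in SS (adjusted p = 0.584) and 0.20 ± 0.14 in BN lungs (0.451). Cnn1 (calponin), which slows the cycling of myosin on actin, had 116.2 to 161.9 in SS HTV and 96.8 to 133.5 in SS control lungs, with 86.4 to 173.3 in BN HTV and 104.9 to 120.5 in BN control lungs. Its differences were 0.20 ± 0.20 in SS (0.559) and 0.09 ± 0.20 in BN lungs (0.861), and the BN HTV arrays enclosed the controls. Smtn (smoothelin), a protein of fully contractile muscle, had 100.3 to 128.9 in SS HTV and 78.5 to 130.8 in SS control lungs, with 96.0 to 136.5 in BN HTV and 76.8 to 108.1 in BN control lungs. Its differences in SS and BN lungs were 0.04 ± 0.19 (0.922) and 0.31 ± 0.19 (0.386). A second Smtn probe set stayed between 12.2 and 29.0 and was not tested. Des (desmin), the intermediate filament of muscle, had differences of -0.01 ± 0.16 in SS (0.971) and 0.27 ± 0.16 in BN lungs (0.377). Its values by array are given with the cardiac markers.

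The HTV effect was not shown to differ between strains for any member. The interaction, the SS effect minus the BN effect, was called for 0 of the 10 probe sets, with 0 at an unadjusted p below 0.05. Over all probe sets limma called 0, or 0%, with 1547 of 18626 below an unadjusted 0.05. The member with the smallest p was Tagln, at -0.33 ± 0.19 (adjusted p = 0.654, 95% interval -0.75 to 0.08), followed by Mylk at 0.21 ± 0.14 (0.677, interval -0.09 to 0.50). A p that misses the threshold does not show equal responses, and these intervals are wide.

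Calls were made between the strains. In control lungs 2 of the 10 probe sets, Tagln and Myl9, were higher in SS than in BN lungs, where limma called 12.3% of all probe sets (5.9% higher, 6.43% lower), and 3 of the 10 had an unadjusted p below 0.05. The control arrays of the strains did not overlap for 4 of the 10 members, Tagln, Myl9, Actg2 and Mylk, against 33.2% of all probe sets, a share near the background. Tagln averaged 737.7 ± 42.9 in SS and 489.2 ± 79.9 in BN control lungs (SD, n = 3 each), a log2 difference of 0.59 ± 0.14, or a fold of 1.50 (interval 1.226 to 1.843, adjusted p = 0.0158). Myl9 averaged 364.0 ± 42.3 in SS and 254.8 ± 29.7 in BN control lungs, 0.49 ± 0.13, or a fold of 1.40 (interval 1.150 to 1.711, adjusted p = 0.0309). The lowest SS control array of each gene, 706.7 for Tagln and 316.5 for Myl9, lay above the highest BN control array, 568.3 for Tagln and 286.3 for Myl9. Without BN control 2, which had the lowest Tagln and Myl9 of all arrays, neither passed (Tagln 0.47, adjusted p = 0.0821; Myl9 0.41, adjusted p = 0.138). Myl9 was also lost without SS control 1 (0.0849), SS control 2 (0.0962) or BN control 1 (0.0642), with only the 6 arrays compared (0.0581) and with the beta-actin ratio in the model (0.0680).

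Actg2 had the largest strain difference in control lungs, at 0.60 ± 0.24, a fold of 1.52 (interval 1.067 to 2.166), but its arrays were more scattered and it did not pass (unadjusted p = 0.0239, adjusted p = 0.111). It passed with array weights (0.69, adjusted p = 0.0254) and without SS control 3 and BN HTV 3 together (0.79, 0.0148). The bright Mylk probe set was 1736.2 ± 86.4 in SS and 1946.1 ± 67.7 in BN control lungs, at -0.16 ± 0.10 (adjusted p = 0.278), with all 3 SS arrays below all 3 BN arrays. The strain differences of the other members in control lungs were 0.24 ± 0.19 for Smtn, 0.08 ± 0.21 for Myh11, 0.01 ± 0.20 for Cnn1, -0.02 ± 0.20 for Acta2 and -0.14 ± 0.16 for Des, with adjusted p between 0.411 and 0.979. The median over the 10 probe sets was 0.04, against -0.02 for all.

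Under HTV, limma called 0 of the 10 members between SS and BN lungs, where it called 8.37% of all probe sets (3.9% higher, 4.47% lower). Myl9 and Des had an unadjusted p below 0.05. Myl9 was again higher in every SS array, averaging 399.6 ± 61.6 in SS HTV and 304.3 ± 24.8 in BN HTV lungs, at 0.37 ± 0.13 (unadjusted p = 0.0156, adjusted p = 0.108). Tagln was 675.3 ± 78.2 in SS HTV and 564.7 ± 82.6 in BN HTV lungs, at 0.25 ± 0.14 (adjusted p = 0.286), with overlap. Arrays did not overlap for 2 members, Myl9 and Myh11, against 29.4% of all probe sets. A smaller or larger strain difference under HTV than in control lungs is the interaction given above, which passed for none of the members. Averaged over both conditions, a comparison added after the values were seen, 3 of 10 probe sets were higher in SS lungs and 0 lower, against 11% called higher, 10.7% lower and 21.7% in all: Myl9 (0.43 ± 0.09, adjusted p = 0.00588), Tagln (0.42 ± 0.10, 0.00741) and Actg2 (0.52 ± 0.17, 0.0411). With the beta-actin ratio in the model these became 0.37 (0.0592), 0.39 (0.0573) and 0.29 (0.341), and the part of RNA integrity, which differed between the strains as given above, was not tested further.

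**Figure D2:**
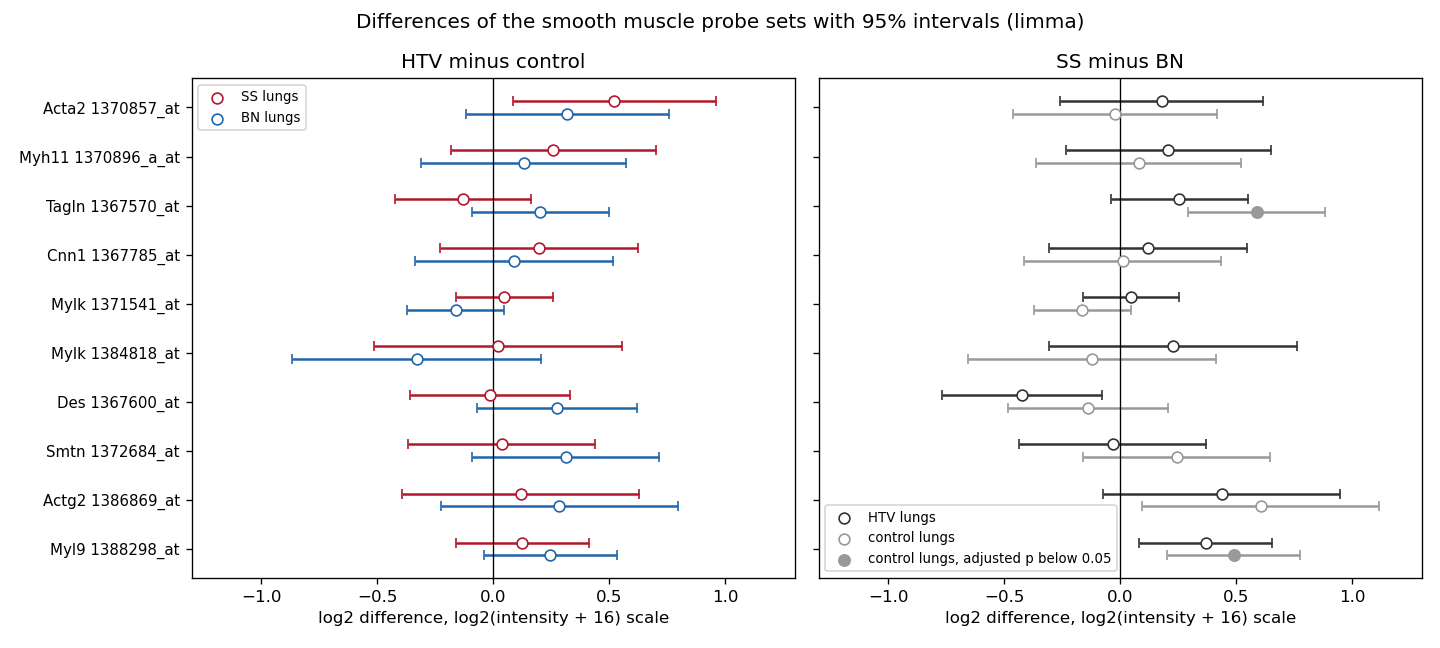
Log2 differences of the 10 tested probe sets with 95% intervals from limma, HTV minus control in SS and BN lungs (left) and SS minus BN in HTV and control lungs (right), on the log2(intensity + 16) scale. No HTV difference passed; filled points mark the strain differences that passed, Tagln at 0.59 and Myl9 at 0.49 in control lungs.

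Des was not called between the strains, and its strain differences were below 0. Its intensity was 276.3, 210.0 and 211.1 in SS HTV lungs and 336.4, 370.5 and 249.8 in BN HTV lungs. In SS control lungs it was 224.1, 228.6 and 246.0, and in BN control lungs 280.0, 211.7 and 288.3. SS arrays were low and close together, and BN HTV arrays 1 and 2 were the highest of all 12. The SS minus BN difference under HTV was -0.42 ± 0.16 (unadjusted p = 0.0196, adjusted p = 0.125), and it passed without BN HTV 3 (-0.58, adjusted p = 0.0455). Desmin is also abundant in heart muscle, and in rodents a sleeve of cardiac muscle follows the pulmonary veins into the lung. Markers of cardiac muscle moved with Des: over the 12 arrays Des correlated at r = 0.78 with the mean log2 level of 21 cardiac genes, given as a description of arrays that share strain and condition. The summed intensity of those 21 genes, of 22 listed, was 476.6 to 2018 in SS HTV and 1910.6 to 6737.9 in BN HTV lungs, and 368.5 to 955.6 in SS control and 1983.5 to 4284.2 in BN control lungs.

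Of 16 cardiac genes tested, 0 were higher and 11 lower in SS than in BN control lungs, and 0 were higher and 6 lower under HTV, where 11% and 7.28% of all genes were called in either direction. These calls rest on few arrays: without SS control 2, 2 of the 11 were kept (Mb and Tnnc1), without BN control 2, 4, and without BN control 1, 6. Under HTV only Mb of the 6 was kept without SS HTV 2, SS HTV 3, BN HTV 1 or BN HTV 2, and with the beta-actin ratio in the model 5 of the 11 and 1 of the 6 were kept. The troponin gene Tnnt2 had 0.9 in SS control 2 and 571.0 in BN HTV 2, and the atrial light chain gene Myl7 had 3.4 and 951.6 on the same arrays, so both were near 0 on some SS arrays. HTV minus control called 0 of the 16 in either strain, with 2 at an unadjusted p below 0.05 in each. Differences were above 0 for 16 in SS and 15 in BN lungs, with medians of 0.76 and 0.46, against -0.01 and -0.03 for all genes. With the strains averaged limma called 1, Mb, kept in 12 of 23 alternatives, against 15.6% of all genes, and 6 had an unadjusted p below 0.05. Skeletal muscle markers summed to 730.1 to 932.1 in SS HTV lungs, against 883 to 947.9 in SS control lungs, and to 1110.3 to 1268.5 in BN HTV lungs, against 804.8 to 955.3 in BN control lungs. Of 6 tested, 0 were called with HTV in SS lungs, with 1 at an unadjusted p below 0.05, and 1 in BN lungs, against 8.04% and 5.68% of all genes. That gene was Acta1, the skeletal actin, which rose in BN HTV lungs (1.72 ± 0.33, adjusted p = 0.00773), while Myh1, a skeletal myosin, averaged 476.0 in BN HTV and 528.9 in BN control lungs. Other Myh1 probe sets gave -0.43 to 0.43 with HTV in BN lungs, none past the threshold. Myh1 was the brightest gene of the skeletal sum, while the skeletal myosins Myh2 and Myh4 were dim, at means of 16.1 and 7.1. Between the strains 0 of the 6 were higher and 1 lower in SS control lungs, against 11% of all genes called. Under HTV 0 were higher and 2 lower, against 7.28%. Ckm was lower in both conditions, kept in 8 of 23 alternatives in control and 16 of 23 in HTV lungs. Acta1 was lower under HTV, kept in 24 of 24. The part of either tissue in the Des values was not tested.

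Acta2 shares its annotation with cardiac actin on 5 further probe sets, which name both Acta2 and Actc1 and were left out by the rule. The brightest of them had 497.0, 327.2 and 170.1 in SS HTV and 1247.3, 1651.3 and 443.9 in BN HTV lungs, with 324.9, 224.6 and 83.7 in SS control and 944.0, 505.5 and 482.6 in BN control lungs. Every BN control array lay above every SS control array, at a log2 difference of -1.64 ± 0.52 (adjusted p = 0.0538). This probe set correlated with the cardiac score at r = 0.93 and with the Acta2 probe set that names 1 gene at 0.28, while that Acta2 probe set correlated with the cardiac score at 0.06, all over 12 arrays. Correlations of the other members with the cardiac score were -0.50 for Tagln, -0.41 for Myl9, -0.25 for Actg2, -0.10 for Smtn and -0.09 for Myh11. They were 0.16 for Cnn1, 0.35 for the bright Mylk probe set and -0.33 for the dim one. These arrays share strain, in which both the cardiac markers and Tagln and Myl9 differed, so these values are partly set by strain, and none was computed within groups.

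**Figure D3:**
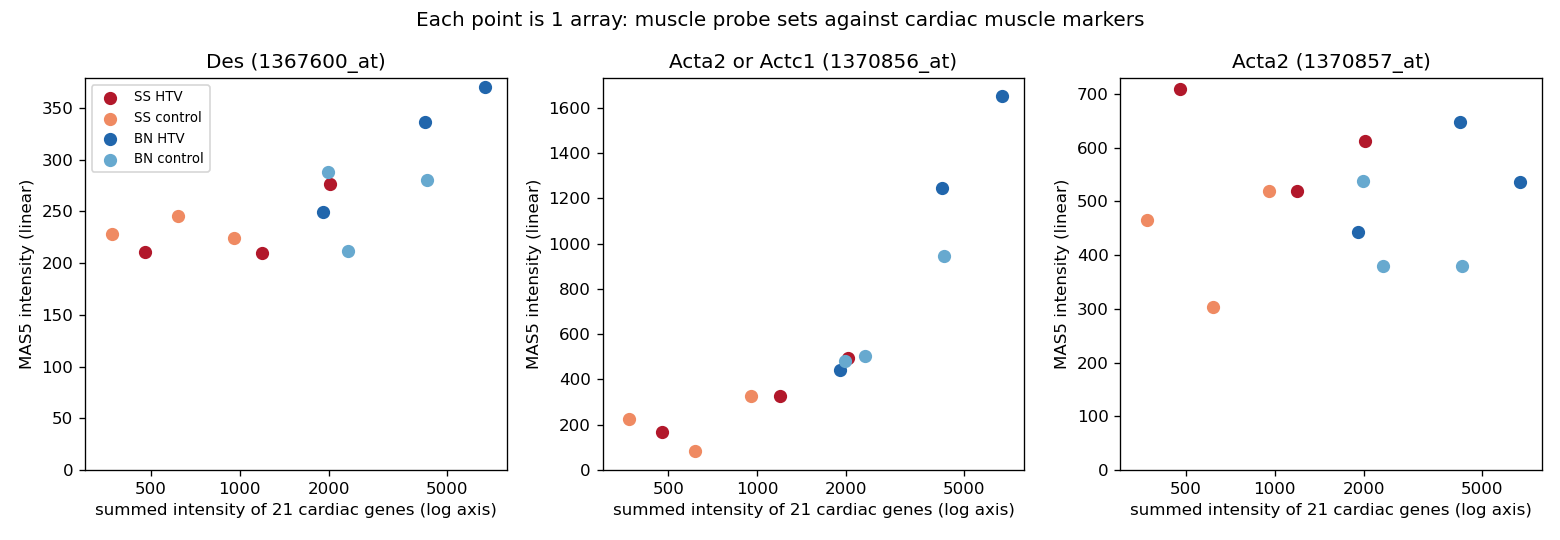
MAS5 intensity (linear) of Des, of the brightest probe set naming both Acta2 and Actc1, and of the single-gene Acta2 probe set against the summed intensity of 21 cardiac genes (log axis); each point is 1 of the 12 arrays, colored by group. Des and the shared probe set follow the cardiac sum (r = 0.78 and 0.93 on log2 scores), and the single-gene Acta2 probe set does not (r = 0.06).

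Markers of other cell types that carry some of these transcripts were also summed. Markers of pericytes, the contractile cells of capillaries, which also make Acta2, summed to 3119.6 to 3415.6 in SS HTV lungs, against 2278.8 to 2930.1 in SS control lungs. In BN HTV lungs they summed to 3186.6 to 3328, against 2790 to 2933.6 in BN control lungs, with no overlap in either strain. The brightest gene of this sum was Mcam, an adhesion molecule that endothelium and smooth muscle share, which rose by 0.63 ± 0.10 in SS (adjusted p = 0.00239) and 0.49 ± 0.10 in BN HTV lungs (0.0130; 0.0573 without BN HTV 2, 0.0637 without BN control 3). Mcam alone had 1572.6 to 1806 in SS HTV and 969.3 to 1173.2 in SS control lungs. It had 1740.5 to 2016.2 in BN HTV and 1223.2 to 1391.9 in BN control lungs. The gap in the sums thus follows Mcam and does not describe the other pericyte genes. Of the 9 pericyte genes tested, 2 rose in SS and 1 in BN lungs and 0 fell, against 8.04% and 5.68% of all genes called. The second gene in SS lungs was Kcnj8, a potassium channel gene (0.61 ± 0.17, 0.0443), kept in 10 of 23 alternatives, and in BN lungs 3 of the 9 were above 0, with a median of -0.08. The pericyte gene Rgs5 had 118.1 to 159.5 in SS HTV, against 152.9 to 194.4 in SS control lungs. Between the strains 0 pericyte genes were higher and 2 lower in SS control lungs, against 11% of all genes called. These were Abcc9, kept in 24 of 24 alternatives, and Cspg4, kept in 23 of 24. Under HTV 0 were called between the strains, against 7.28% of all genes. Fibroblast markers, some of whose cells make Acta2 and Tagln, summed to 11629.7 to 12816.3 in SS control and 8674.3 to 11271.9 in BN control lungs. Of 9 tested, 3 were higher in SS control lungs and 0 lower, against 11% of all genes called, among them Col1a1 (0.85 ± 0.15, adjusted p = 0.00316). With HTV 0 rose and 1 fell in SS lungs, the fibroblast factor Tcf21 (-0.78 ± 0.14, 0.00516), and 0 rose and 2 fell in BN lungs, Tcf21 (-0.61 ± 0.14, 0.0225, kept in 18 of 24 alternatives) and Col1a1 (-0.62 ± 0.15, 0.0260, kept in 17 of 24). A dimmer Col1a1 probe set had the same signs without passing. It gave 0.33 for SS minus BN in control lungs (adjusted p = 0.109) and -0.42 with HTV in BN lungs (0.0788). The fibroblast sum was 11089.7 to 11985.5 in SS HTV lungs and 7601.4 to 8751.3 in BN HTV lungs. Endothelial markers, 9 tested of 10 listed, summed to 8730.7 to 8967.6 in SS control and 11115.4 to 11692 in BN control lungs. Under HTV they summed to 8623.1 to 10120 in SS and 11091.3 to 11722.5 in BN lungs. Of the 9, 0 were higher and 2 lower in SS lungs in each condition, against 11% and 7.28% of all genes. With HTV 1 rose and 0 fell in each strain, against 8.04% of all genes called in SS and 5.68% in BN lungs. This was Flt1, kept in 19 of 24 alternatives in SS and 24 of 24 in BN lungs. A dimmer Flt1 probe set also rose (1.08 in SS, adjusted p = 0.0111, and 1.04 in BN lungs, 0.0148). Another gave 0.03 in SS and -0.37 in BN lungs without passing. The part of these cells in the Acta2, Tagln, Myl9 and Mylk values was not tested.

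Within the set, a group of genes tracked one another over the 12 arrays, where Mylk did not join it. The highest correlations were between Actg2 and Myl9 (r = 0.88), Tagln and Myl9 (0.87), Tagln and Actg2 (0.81) and Acta2 and Myh11 (0.76). As deviations from the group means, which take strain and HTV out, the same pairs gave 0.76, 0.72, 0.67 and 0.73. Mylk correlated with the other members at -0.14 to 0.27 over the arrays. As deviations it had 0.11 to 0.72, highest with Tagln (0.72) and Myl9 (0.67), values like those of the pairs above. Des had -0.18 to 0.30 with the other members over the arrays, but as deviations 0.74 with Actg2, 0.72 with Tagln and 0.67 with Myl9. Smtn had at most 0.39 over the arrays and -0.39 with Des as deviations. All pairs share arrays, scaling and RNA quality, and these values describe 12 arrays.

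The mean centred log2 level of the 9 genes was 0.31, 0.07 and 0.06 on the SS HTV arrays, against 0.19, 0.07 and -0.21 on the SS control arrays. It was 0.17, 0.04 and -0.17 on the BN HTV arrays, against -0.18, -0.31 and -0.03 on the BN control arrays. The lowest were BN control 2 and SS control 3, and HTV and control arrays overlapped in both strains. Among 10555 genes, Actg2 ranked 2nd and Myl9 7th by correlation with this mean, of which each is a part (r = 0.90 and 0.85), while Mylk ranked 4395th (r = 0.07).

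**Figure D4:**
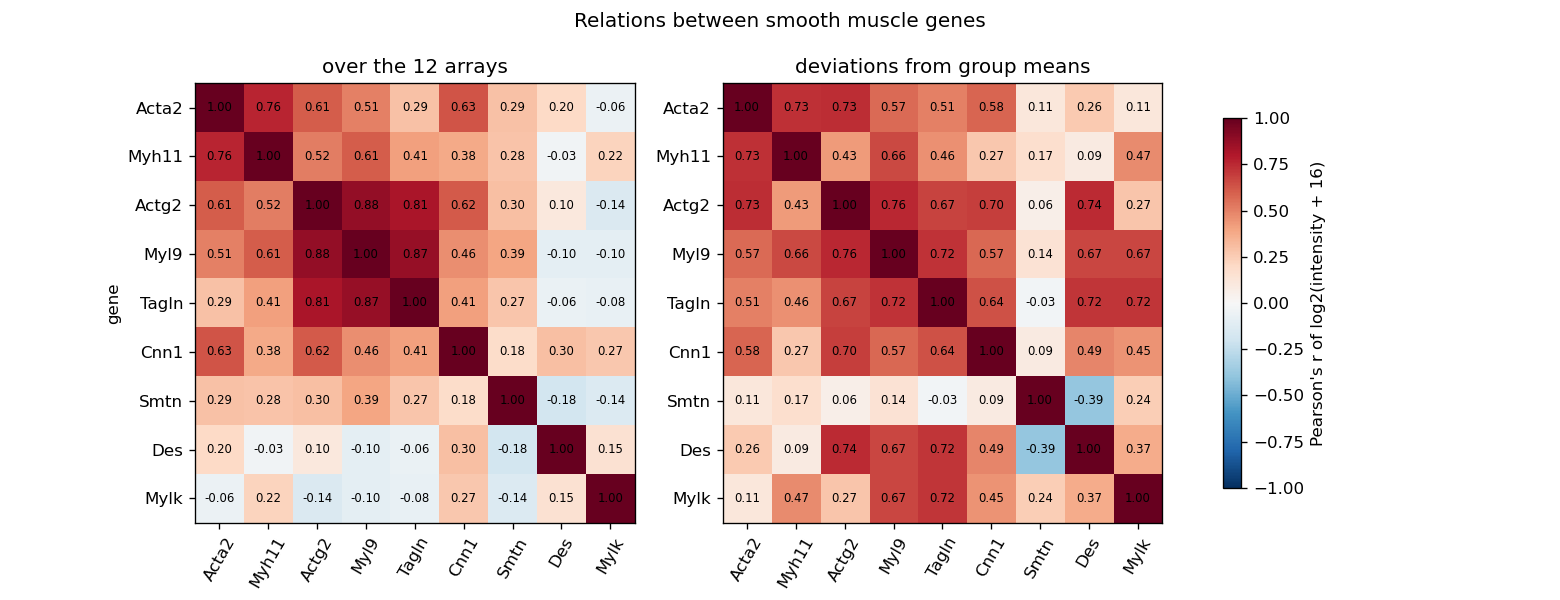
Pearson's r of log2(intensity + 16) between the 9 genes over the 12 arrays (left) and as deviations from the 4 group means (right), from blue (-1) through white (0) to red (1). Actg2, Myl9 and Tagln form the strongest block (0.81 to 0.88 on the left), and Mylk, Des and Smtn have low values with most genes on the left. On the right Mylk has 0.72 with Tagln and 0.67 with Myl9.

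Of the 10546 genes outside the set, those most like its mean over the 12 arrays were Frzb (r = 0.91), a secreted Wnt antagonist, Ppp1r11 (0.89), a protein phosphatase inhibitor, Fcer1g (0.87), Kcnk6 (0.87), Arhgap45 (0.85) and Reps1 (0.84). Those most like the bright Mylk probe set were Bud13, Sun1, Tmbim6, Acaca, Gab1 and Atp6v1c2, at r = 0.82 to 0.84. As deviations from the group means the nearest to the set were Slc2a4 (0.93), Fcer1g (0.93), Adam1a (0.91), Slc12a5 (0.90), Hcls1 (0.90) and Lrg1 (0.89). The nearest to Mylk were Metap1 (0.92), Slco1a4 (0.90), Tns1 (0.88), Aamdc (0.88), Zhx3 (0.88) and Bud13 (0.87). These likenesses are descriptions of 12 arrays and say nothing of shared function.

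The genes that govern light chain phosphorylation gave a few HTV calls, none of them for the kinase itself. Of 18 genes tested of 22 listed, Mylk among them, 1 rose and 0 fell with HTV in SS lungs and 2 rose and 1 fell in BN lungs, where 8.04% and 5.68% of all genes were called. Rhob, an early-response gene, rose in both, by 0.85 ± 0.14 in SS (adjusted p = 0.00266) and 0.95 ± 0.14 in BN HTV lungs (0.00150), and passed under every alternative run. Rnd3 rose in BN HTV lungs (0.76 ± 0.15, adjusted p = 0.0115; 0.0514 without BN control 3), where 2 other Rnd3 probe sets gave 0.52 and 0.62 without passing. The kinase gene Ilk fell there (-0.77 ± 0.16, 0.0144; 0.0659 without BN HTV 1 and 0.0680 without BN control 1). The effectors next to Mylk did not pass: Rhoa gave -0.26 ± 0.11 in SS and 0.13 ± 0.11 in BN lungs, the myosin phosphatase subunit Ppp1r12a 0.03 ± 0.09 and 0.24 ± 0.09, and the phosphatase inhibitor Ppp1r14a -0.10 ± 0.14 and -0.35 ± 0.14.

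Between the strains this list gave 3 genes higher and 1 lower in SS control lungs, and 2 higher and 0 lower under HTV, against 11% and 7.28% of all genes called. The lower one was Arhgef1, a guanine nucleotide exchange factor (-0.56 ± 0.12, adjusted p = 0.0105; 0.0506 without BN control 2). Rnd3 was higher in SS control lungs (0.53 ± 0.15, 0.0411, kept in 14 of 24 alternatives), and Ilk in SS HTV lungs (0.72 ± 0.16, 0.0158, kept in 21 of 24). Ppp1r14a, also called CPI-17, which keeps the light chain phosphorylated, was higher in SS lungs, by 0.52 ± 0.14 in control (adjusted p = 0.0266) and 0.77 ± 0.14 in HTV lungs (0.00391). The control difference was lost without SS control 2 (0.109), BN control 2 (0.119) or BN control 3 (0.0784) and with the beta-actin ratio in the model (0.0644). Rhoa was higher in SS control lungs by 0.42 ± 0.11 (0.0243), a call kept in 16 of 24 alternatives and lost without SS control 1 or 3 or without any 1 BN control array (0.0541 to 0.0963). A second Rhoa probe set gave 1.12 (0.00104). Ppp1r14a and Rhoa thus had the same direction as Myl9 and Tagln in control lungs, while Mylk, at -0.16 ± 0.10, did not.

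The regulators of these genes also gave a few HTV calls. Of 15 genes of the Srf and myocardin list tested, of 20 listed, 1 rose in SS and 2 rose in BN HTV lungs and 0 fell in either. Over all genes 8.04% were called in SS and 5.68% in BN lungs. With the strains averaged 3 rose and 2 fell, where 15.6% of all genes were called. Srf gave 0.37 ± 0.12 in SS (adjusted p = 0.0707) and rose by 0.51 ± 0.12 in BN HTV lungs (0.0213; 0.0525 to 0.102 without BN HTV 1 or any 1 BN control array), and its average of 0.44 ± 0.08 (0.00294) held under every alternative run. A second, dimmer Srf probe set gave -0.00 in SS and 0.15 in BN lungs. Klf5, a factor of proliferating smooth muscle and of epithelium, rose by 0.39 ± 0.10 in SS (0.0340, kept in 15 of 24 alternatives and lost without SS HTV 1 or 3, SS control 2 or 3 or BN control 3) and 0.57 ± 0.10 in BN HTV lungs (0.00539), and its 3 other probe sets gave 0.23 to 1.07 without passing in either strain. With the strains averaged, Fhl2 (0.49 ± 0.12), an Srf cofactor, also rose, and Hey2 (-0.60 ± 0.15), which represses myocardin targets, and Gata6 (-0.45 ± 0.12), a factor of differentiated muscle, fell. Myocd, dim in these lungs, gave 0.21 ± 0.24 in SS and -0.04 ± 0.24 in BN lungs. It was lower in SS than in BN control lungs (-0.95 ± 0.24, 0.0238), the reverse of Tagln and Myl9. That call was lost without SS control 2 (0.0936), BN control 2 (0.0736) or BN control 3 (0.0940). A term that sets SS control 3 and SS HTV 3 apart (the animal number block, 0.054) and the beta-actin ratio in the model (0.0596) lost it too. Hey2 was lower too, by -0.72 ± 0.21 in control (0.0391, kept in 14 of 24) and -0.79 ± 0.21 in HTV lungs (0.0320, kept in 16 of 24), and with Myocd these were the calls of this list between the strains, 0 higher and 2 lower in control and 0 higher and 1 lower in HTV lungs, against 11% and 7.28% of all genes. Myocd is also a heart muscle gene, and the cardiac markers above were lower in SS lungs too. The part of cardiac muscle in the Myocd values was not tested.

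In the list of thin filament, dense body and adhesion genes, 25 of 28 were tested, and 1 rose and 0 fell with HTV in each strain, against 8.04% of all genes called in SS and 5.68% in BN lungs. This was Itga7, the laminin receptor of muscle, which rose by 1.59 ± 0.20 in SS (adjusted p = 0.000471) and 0.77 ± 0.20 in BN HTV lungs (0.0421, kept in 14 of 24 alternatives and lost without SS HTV 3, BN HTV 1 or 2, or any 1 BN control array). The interaction for Itga7 was 0.83 ± 0.29 and did not pass. Among the actin partners of the members, Cald1 (caldesmon) gave 0.01 ± 0.08 in SS and 0.04 ± 0.08 in BN lungs, Tpm1 -0.22 ± 0.09 and -0.00 ± 0.09, Tpm2 -0.03 ± 0.18 and 0.11 ± 0.18, and Vcl (vinculin) 0.04 ± 0.15 and -0.13 ± 0.15, none past the threshold on these brightest probe sets. A dimmer Tpm1 probe set fell in BN HTV lungs (-0.46, adjusted p = 0.0431) and gave -0.41 in SS lungs (0.0560). Between the strains, by the brightest probe sets, 0 were higher and 2 lower in SS control lungs. Under HTV 2 were higher and 1 lower, against 11% and 7.28% of all genes called. Palld, an actin scaffold of stress fibres, was lower in SS lungs, by -1.32 ± 0.34 in control (0.0247) and -1.55 ± 0.34 in HTV lungs (0.0143), each kept in 20 of 24 alternatives, and the collagen receptor gene Itga1 was lower in SS control lungs (-0.99 ± 0.28, 0.0347, kept in 16 of 24). Itga8 was higher in SS HTV lungs (0.59 ± 0.16, 0.0368, kept in 13 of 24). Vcl was higher in SS HTV lungs (0.60 ± 0.15, adjusted p = 0.0283; lost without any 1 SS HTV array, without BN HTV 1 or 2 and with the beta-actin ratio in the model). A dimmer Vcl probe set was called the opposite way there (-0.72, 0.0266), so the gene has no settled direction. In control lungs, too, dimmer probe sets of these genes were called. Lower in SS were Tpm1 (-1.85, 0.00915, and -2.93, 0.00932), Tns1 (-1.24, 0.00863), Pdlim5 (-1.04, 0.0117), Vcl (-0.93, 0.0323) and Cald1 (-0.67, 0.0200). Tpm4 (0.94, 0.000488) and Synpo2 (0.59, 0.0414) were higher.

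Among channels and receptors 3 genes rose in SS HTV lungs, and the interaction was called for none of the genes tested. Of 16 calcium and channel genes tested, of 20 listed, 2 rose in SS HTV lungs and 0 in BN HTV lungs, where 2 had an unadjusted p below 0.05, against 8.04% and 5.68% of all genes called: Kcnk3, a potassium channel that relaxes pulmonary arteries (0.54 ± 0.12, adjusted p = 0.0182; lost without SS HTV 2 or 3 or SS control 3), and Orai1, a store-operated calcium channel (0.52 ± 0.13, 0.0272; lost without SS HTV 1 or 3 or SS control 1 or 3). In BN lungs these gave 0.24 ± 0.12 and 0.17 ± 0.13. Between the strains 1 was higher (Trpc6, 0.83 ± 0.19, 0.0146, kept in 20 of 23) and 1 lower (Cacnb2, -0.47 ± 0.14, 0.0477, kept in 7 of 24) in SS control lungs, against 11% of all genes called. Of 12 receptors and their messengers tested, of 27 listed, 1 rose in SS HTV lungs, against 8.04% of all genes called. In BN lungs 0 were called, against 5.68% of all genes, and 3 had an unadjusted p below 0.05. The gene that rose was the adrenergic receptor gene Adra1b (0.59 ± 0.16, 0.0405, kept in 14 of 24 alternatives). Its call was lost without SS HTV 1 or 2, any 1 SS control array or BN control 1. The nonmuscle counterparts of the members, 8 tested of 10 listed, were not called in either strain by limma, with 1 in SS and 0 in BN lungs below an unadjusted 0.05. The nonmuscle heavy chain Myh9 gave 0.31 ± 0.11 in SS (0.0955) and 0.03 ± 0.11 in BN lungs (0.930).

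**Figure D5:**
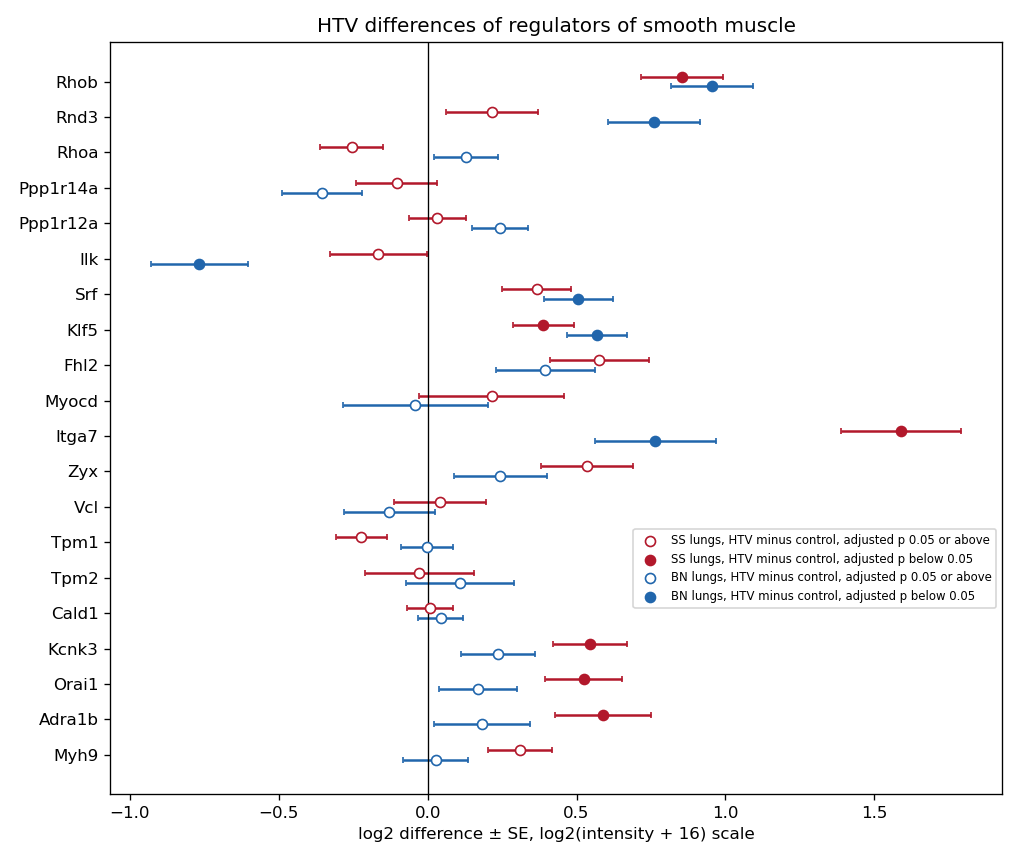
HTV minus control in SS and BN lungs for 20 genes of the lists above, log2 difference ± SE from limma on the log2(intensity + 16) scale; filled points passed at an adjusted p below 0.05. Rhob, Klf5 and Itga7 passed in both strains, while Rhoa, Ppp1r12a, Myocd, Cald1, Tpm1, Tpm2 and Vcl, each by its brightest probe set, passed in neither.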

How the data were processed

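Total RNA of 12 right rat lungs, 6 µg each and labelled with biotin per the labels' protocols, was measured on Affymetrix arrays. The authors deposited 1 linear intensity for each probe set, made with MAS5 per the submitters' processing notes; its version is not given in the sources used here. Detection calls were not used here. Precision is limited by the number of arrays. The 57 control probe sets were left out. Of the others, 20826 carry a single gene name in the platform annotation, 436 carry more than 1 and 9780 carry no name, and only single names were used. Intensities were taken as log2(intensity + 16), which understates changes of dim probe sets, and probe sets with a mean below the 40th percentile (43.6) were dropped, which left 18626. The 4 group means were fitted over all 12 arrays with limma 3.58.1 in R 4.3.3 (eBayes with trend, 8 residual degrees of freedom), with Benjamini-Hochberg adjustment over all tested probe sets in each comparison and a threshold of 0.05. Errors after ± are SE for differences and SD for levels. Genes in lists are represented by their brightest tested probe set. Every member probe set is reported. From the other lists, counts for some comparisons, at most 4 called genes a comparison and a fixed panel are given. Counts of the mesothelium list are not given. Mcam, Acta1, Lmod1, Kcnmb1, Scgb1a1, Col1a1, Rgs5, Kcnj8, Tcf21, Myh1, Mb, Tnnc1, Tnnt2 and Myl7 were chosen after their values were seen. So were Abcc9, Cspg4, Flt1, Ckm, Tppp3, Foxj1, Krt5, Muc5b and Bpifa1. Members and lists were chosen with earlier results of these data known. The model was tested on simulated data. Promoters are RefSeq's. Alternatives changed the pseudocount (1 or 64), the filter (none, or the 60th percentile) and the scaling (quantile normalization or median centring). They also changed the model (no trend, array weights, an animal number block), the probe sets (a mean for each gene) and the arrays (only those compared, or each left out). The animal number block is 1 term that sets SS control 3 and SS HTV 3 apart from all other arrays. Their animal numbers stand apart from those of the other SS arrays, and the labels name no batch. Alternatives added later are named below.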

Additional observations from a re-analysis of the deposited data

How the results depend on the processing

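Alternatives added after seeing the data were a beta-actin covariate, SS control 3 and BN HTV 3 left out together, and the average of the strain differences. Counts of smooth muscle probe sets past the threshold stayed at 0 for HTV in SS lungs, HTV in BN lungs and the interaction under every alternative run. For HTV averaged over strains the count was 1 (Acta2) with the beta-actin covariate and 0 to 1 over the arrays left out in turn. For SS minus BN in control lungs, 2 as reported, it was 4 with array weights (Smtn at 0.45, adjusted p = 0.0448, and Actg2 added), 1 with only the arrays compared, 0 to 2 over single arrays left out and 3 without SS control 3 and BN HTV 3 together. For SS minus BN under HTV, 0 as reported, it was 1 with the animal number block (Myl9 0.46, adjusted p = 0.0395), 1 without SS control 3 and BN HTV 3 together (Des -0.58, adjusted p = 0.0346) and 0 to 1 over the arrays left out. The dim Mylk probe set changed sign in the strain average, 0.05 as reported and -0.37 (adjusted p = 0.0485) with the beta-actin covariate, under which its difference in control lungs was -0.46 (0.0488); the cause was not tested. Actg2 in the strain average kept its call in 14 of 23 alternatives and Myl9 in 22 of 23. Of 1414 values of member probe sets under alternatives in the planned comparisons, 1379 kept their sign and side of the threshold or crossed 0 by less than 1 SE, 11 gained and 7 lost a call, and 17 crossed 0 by more without a call. No paired analysis was possible because the animal numbers in the labels differ between groups, and the animal number block pairs no arrays. Arrays 3 a group limit what can be called, and signal over background is unknown for dim probe sets.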
